A study of Cucumis melo with 9 samples.

Results

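The genes described here encode late embryogenesis abundant (LEA) proteins, dehydrins and proteins named for cold, low temperature, desiccation or ozone in melon fruit. They were chosen by their description in the deposited gene table, which had to contain one of a fixed set of phrases such as "late embryogenesis", "dehydrin", "ECPP44", "cold regulated", "cold shock" or "desiccation". This gave 96 of the 29980 genes of the table, of which 67 are LEA proteins outside the hydroxyproline-rich class, 8 LEA hydroxyproline-rich glycoproteins, 7 desiccation-related proteins, 5 cold-regulated or cold acclimation proteins, 3 dehydrins, 3 cold shock proteins, 2 low-temperature-induced proteins and 1 ozone-induced protein. The descriptions are transfers by similarity, and none of the 96 genes carries a melon gene symbol in the table.

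RNA was sequenced from ripe fruit of 'HT', a climacteric oriental melon grown in a greenhouse, in order to follow how cold storage changes fruit gene expression. Fruit of Group A (recovered) spent 7 d at 4°C followed by 1 d near 22°C, fruit of Group B (chilled) spent 8 d at 4°C, and fruit of Group C (unchilled) were picked on day 8, that is 8 d after the others, and were not stored. According to the labels, the cold storage was free of chilling injury. Each group had 3 replicates of 3 pooled fruits. All groups are the same cultivar. Because the unchilled fruit differed from both other groups in harvest date as well as in storage, these factors cannot be told apart in any comparison with Group C. Groups A and B differed in the last day of storage.

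LEA proteins are very hydrophilic, mostly unstructured proteins that accumulate in seeds as the embryo matures and dries, and in leaves, roots and fruits under drought, cold or salt. They are thought to shield membranes and enzymes when water is lost or frozen. Dehydrins form a class of LEA proteins with a lysine-rich repeat. In Arabidopsis, many of their genes are switched on by CBF/DREB factors, which bind a cold- and drought-responsive promoter element and are themselves activated by ICE1, or by ABI5-type factors of the abscisic acid (ABA) pathway.

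Of the 96 genes, 23 had no count in any library and 27 had between 1 and 289 counts over all 9 libraries (median 26) but a mean FPKM (fragments per kilobase of gene, scaled to library size) of 1 or less. The other 46 passed the filter of a mean FPKM above 1 and were tested. They comprised all 3 dehydrins, 5 hydroxyproline-rich LEA glycoproteins, 27 other LEA proteins, 4 cold-regulated or cold acclimation proteins, 3 cold shock proteins, both low-temperature-induced proteins, 1 desiccation-related protein and the ozone-induced protein. Of the tested genes, 14 had a mean FPKM of 1 or less in at least 1 group and so depended on the other groups to pass. Of these 14, 7 were lowest in chilled, 4 in unchilled and 3 in recovered fruit. Their lower level in that group was partly set by this selection. The highest mean FPKM among untested genes was 0.923. Levels below are TMM-scaled FPKM, the deposited FPKM divided by the scaling factor of the library, and can be compared between genes because they are set per gene length.

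The 96 genes together were far more abundant in chilled fruit. Their summed level was 10550 to 11186 in the chilled libraries, 1975 to 2338 in the unchilled and 1589 to 1776 in the recovered ones, so that no library of one group reached the range of another. They took 1.03 to 1.18% of all counts after chilling, against 0.251 to 0.284% in unchilled and 0.203 to 0.226% in recovered fruit. Only 2 genes made most of this sum. The dehydrin MELO3C026550.2 and the LEA 3 family gene MELO3C015995.2 held 91.1 to 92.1% of the summed level in the chilled libraries, 68.6 to 74.8% in the unchilled and 61.8 to 66.1% in the recovered ones. The other 94 genes summed to 917 ± 70.8 after chilling (mean ± SD, n = 3), 599 ± 18.2 in unchilled and 603 ± 65.2 in recovered fruit. Division by the scaling factors (0.764 to 0.808 in chilled, 1.11 to 1.13 in unchilled, 1.12 to 1.13 in recovered libraries) raises chilled levels against the others. This sum was not computed with library totals. The plot of summed levels by library shows these parts. In RNA from whole tissue, fewer cells of a type and less RNA per cell cannot be told apart.

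**Figure D1:**
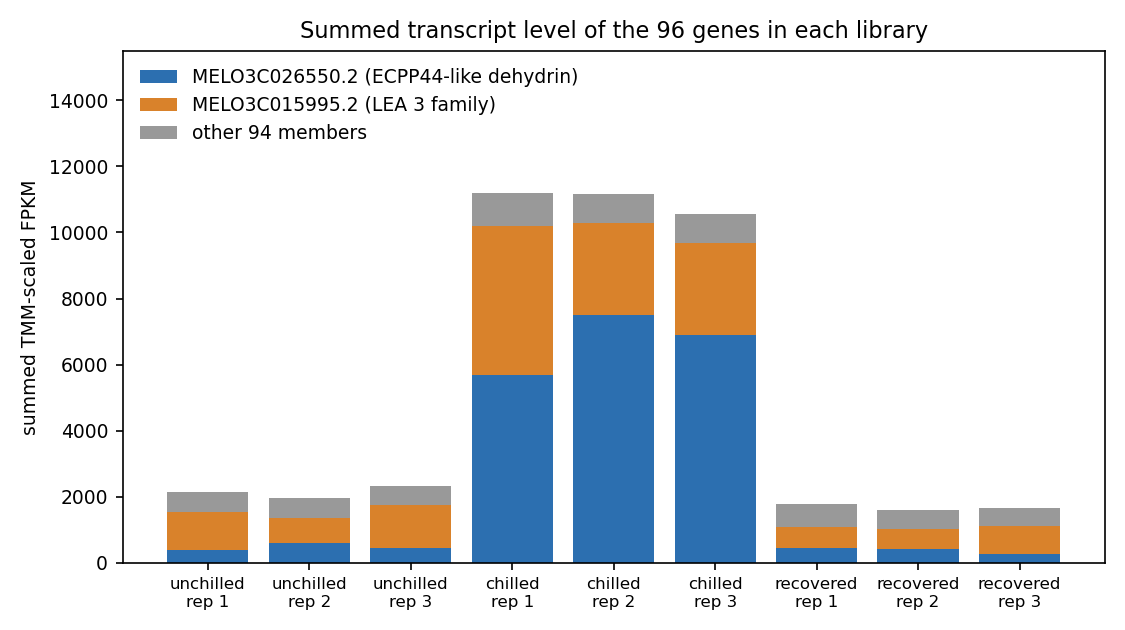
Summed level of the 96 genes in each library, in TMM-scaled FPKM on a linear axis from 0, with the dehydrin MELO3C026550.2, the LEA 3 family gene MELO3C015995.2 and the other 94 genes stacked. The 3 chilled libraries stand between 10550 and 11186 and the other 6 between 1589 and 2338, and most of the chilled bars are the 2 named genes.

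The libraries held 15508367 to 19011486 counts each, and between 55 and 64 of the 96 genes were seen in a library. The ripening genes CmACO1, CmAAT1 and CmNOR, used as markers of ripe flesh, were present in every group. Their mean levels (n = 3) were 1242, 2057 and 806 in unchilled, 545, 313 and 25.6 in chilled and 1462, 2459 and 1125 in recovered libraries. The recovered CmACO1 mean had an SD of 901. The study reports these genes as lower after chilling, so their levels cannot measure the share of flesh in these groups. Because LEA proteins are best known from seeds, seed storage and oil body genes were examined beside them. The word list for them held 52 genes, of which 27 had no count in any library and 8 were tested. Its words also took in leguminosin secreted peptides, which made up most of the genes without a count and none of the tested ones. The summed level of the list was 145 to 183 in chilled, 92.0 to 110 in unchilled and 45.7 to 53.7 in recovered libraries. Between chilled and unchilled fruit 3 were called higher and 2 lower (37.5% and 25%, against 22.1% and 26.2% of all tested genes). Between recovered and chilled fruit 1 was higher and 5 lower (12.5% and 62.5%, against 25.1% and 25.3%). Between recovered and unchilled fruit 0 were higher and 4 lower (0% and 50%, against 3.66% and 9.15%). The 11S seed storage globulin MELO3C012886.2 had mean levels of 26.9 (unchilled), 87.4 (chilled) and 17.7 (recovered), and oleosin 1-like MELO3C011123.2, a protein of seed oil bodies, 16.0, 45.4 and 9.99. The 2 genes called lower after chilling, named after their values were seen, were oleosin-like MELO3C005464.2, with mean levels of 38.1, 18.6 and 10.1 in the same order (log2 change -1.04, adjusted p = 0.0068), and MELO3C008252.2, described as a protease inhibitor, seed storage or lipid transfer protein, with 8.90, 0.659 and 1.79 (-3.70, adjusted p = 0.0021). Genes listed as cutin and wax enzymes, meant as markers of the fruit surface, summed to 4013, 1331 and 1477 in unchilled replicates 1 to 3. They summed to 722 to 1160 in chilled and 738 to 1415 in recovered libraries. Their list also took in a glycerol-3-phosphate acyltransferase described as chloroplastic. It further held several 1-acyl-sn-glycerol-3-phosphate acyltransferases, such as MELO3C009663.2 with means of 71.9, 91.6 and 83.7 in unchilled, chilled and recovered fruit. The sum of this list therefore need not measure the fruit surface alone. Genes listed as chloroplast-encoded summed to 1143 to 1221 in unchilled, 1535 to 1561 in chilled and 1263 to 1531 in recovered libraries. The words of this list also took in Ycf-like and Ycf-interacting proteins and many genes described as DNA-directed RNA polymerase subunits. Among the latter, MELO3C014271.2 had means of 104, 15.0 and 179 in unchilled, chilled and recovered fruit. MELO3C023255.2, described with DUF506, had 52.8, 51.0 and 153. The photosystem II protein D1 gene MELO3C000428.2 had 15.9, 37.2 and 19.4. The sum of this list is therefore not a measure of chloroplast-encoded RNA. The part of these tissues in the LEA results was not tested.

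Chilled fruit were first compared with unchilled fruit. Of the 46 tested genes, 15 rose and 13 fell after chilling, and 18 did not pass the test. Calls rest on edgeR's quasi-likelihood test, with p-values adjusted by Benjamini-Hochberg (below 0.05) and log2 fold changes beyond 1 in either direction. Among all 15022 tested genes, 48.3% were called in this comparison, 22.1% higher and 26.2% lower, against 32.6% and 28.3% of these 46, and the number called either way (28, or 60.9%) has to be read against that high background. The median log2 fold change was 0.10 for the 46 genes and -0.06 for all tested genes. With library totals in place of TMM scaling, which moved the median of all genes to -0.56, the split was 12 higher and 18 lower, where 14.9% of all tested genes were called higher and 37.9% lower. All 3 libraries of the chilled group lay outside the range of the unchilled ones for 34 of the 46 genes (73.9%), compared with 78.3% of all genes.

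Recovered fruit were then set against chilled fruit, which serve as the shared group of both comparisons. Here 11 genes were higher and 13 lower after 1 d at room temperature and 22 did not pass, where 50.4% of all tested genes were called (25.1% higher and 25.3% lower, against 23.9% and 28.3% of the 46). The median log2 fold change was -0.18, and -0.02 for all genes. With library totals, where the median of all genes moved to 0.49, the split was 16 higher and 11 lower, where 36.4% of all tested genes were called higher and 17.2% lower. The libraries of 34 genes did not overlap between these groups (73.9%, against 79.9% of all genes).

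Recovered fruit were last compared with unchilled fruit, where 4 genes were higher, 5 were lower and 37 did not pass, which is 19.6% called where 12.8% of all tested genes were called (3.66% higher and 9.15% lower, against 8.70% and 10.9% of the 46). The libraries of 20 genes did not overlap (43.5%, against 52.9% of all genes). The count of higher genes was 1 without recovered replicate 1 or without unchilled replicate 1 and 2 without unchilled replicate 3, and that of lower genes was 3 without recovered replicate 3. The plot of fold changes shows all 46 genes in the 3 comparisons.

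**Figure D2:**
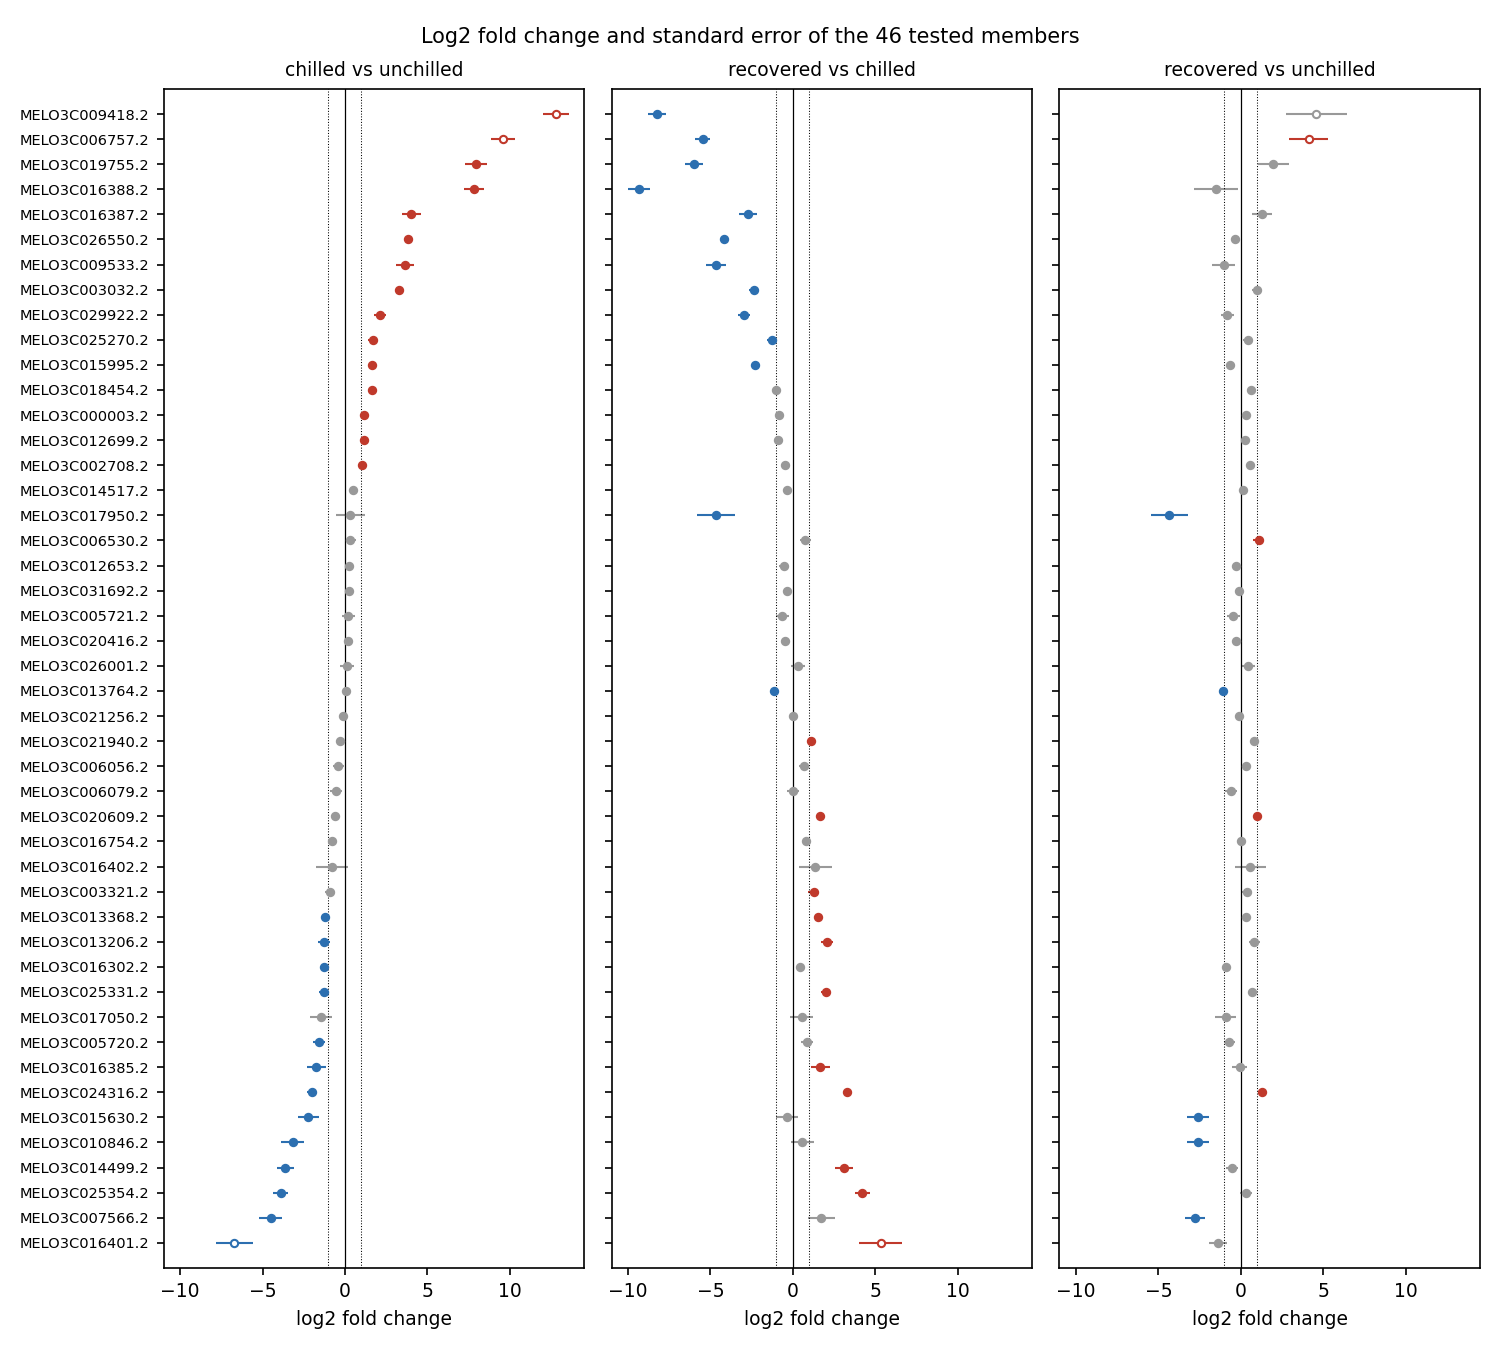
Log2 fold change (points) and standard error (bars) of the 46 tested genes in the 3 comparisons, ordered by the first one, with dotted lines at an absolute value of 1. Red points were called higher and blue ones lower, grey ones did not pass, and open points mark genes without a count in a group, whose fitted value is no bound; 15 are red and 13 blue for chilled against unchilled, 11 and 13 for recovered against chilled, and 4 and 5 for recovered against unchilled fruit.

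The most abundant gene was the dehydrin MELO3C026550.2, described as phosphoprotein ECPP44-like after a dehydrin of embryogenic carrot cells. It lies on chromosome 3 at 24830447 to 24832398, plus strand (coordinates are those of the table, for which the study's methods name genome DHL92 v3.5.1). Its levels were 391.8, 586 and 454 in the unchilled, 5685, 7494 and 6897 in the chilled and 451, 404 and 269 in the recovered libraries. Every chilled library stood above every other one, while recovered and unchilled libraries overlapped. The transcript was 14-fold higher in chilled than in unchilled fruit (log2 fold change 3.81 ± 0.25 SE, adjusted p = 7.7e-07) and fell 17.9-fold on recovery (-4.16 ± 0.25, adjusted p = 4.4e-07). Recovered and unchilled fruit did not differ by the test (-0.35 ± 0.22, adjusted p = 0.25).

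The other dehydrins, MELO3C016401.2 and MELO3C016402.2, are both described as DHN1 and lie next to each other on chromosome 7, at 24180093 to 24180395 and 24182063 to 24183504. MELO3C016401.2 moved against the ECPP44-like gene. It had levels of 1.34, 3.87 and 2.38 in unchilled, 0 in all 3 chilled and 1.07, 0.707 and 1.08 in recovered libraries. With 42 counts in the unchilled and 0 in the chilled group, it was at least 10.4-fold lower in chilled fruit, with 3 counts per group as floor (adjusted p = 0.00099). With 17 counts after recovery it was at least 3.88-fold higher there than in chilled fruit (adjusted p = 0.0070). As MELO3C016401.2 passed the filter through the other groups, its lower level in chilled fruit was partly set by this selection. MELO3C016402.2 scattered widely, at 3.07, 18.4 and 13.2 in unchilled, 3.56, 9.14 and 7.36 in chilled and 5.60, 42.8 and 3.52 in recovered libraries. The ranges overlapped in every pair of groups, and no comparison passed. Whether reads of such near neighbours with the same description can be told apart was not tested.

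The second most abundant gene was MELO3C015995.2 of the LEA 3 family (chromosome 1, 32324718 to 32325711, minus strand), a family of small proteins that in Arabidopsis includes a mitochondrial member induced by senescence and stress. Its levels were 1159, 768 and 1294 in unchilled, 4502, 2799 and 2780 in chilled and 646, 618 and 829 in recovered libraries. The chilled libraries did not overlap the others. The change was 1.65 ± 0.25 on the log2 scale after chilling (3.13-fold, adjusted p = 0.00025) and -2.27 ± 0.26 on recovery (adjusted p = 3.2e-05). Its family members on chromosome 7 were much lower and behaved otherwise. MELO3C017950.2 (28262237 to 28263049) had 16.9, 3.38 and 19.9 in unchilled, 33.7, 10.4 and 6.5 in chilled and 1.75, 0 and 0.264 in recovered libraries, so that only the recovered libraries were apart from the rest. It fell by 4.65 on the log2 scale on recovery (SE 1.14, adjusted p = 0.0051) and was lower in recovered than in unchilled fruit (-4.32 ± 1.14, adjusted p = 0.018). The latter call ended without recovered replicate 2 (adjusted p = 0.051), recovered replicate 3 (0.065) or unchilled replicate 3 (0.051). Without recovered replicate 1 its values were -6.80 and -6.47, and without chilled replicate 1 the change on recovery was -3.66. The neighbour MELO3C017949.2 was not tested. It had 38 counts in chilled and 0 in both other groups, which makes it at least 17.1-fold higher in chilled than in unchilled libraries, for counting error only. These counts were uneven, with 28, 8 and 2 in chilled replicates 1 to 3.

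Several LEA genes that were almost silent in unchilled fruit were detected after chilling. The clearest were embryonic protein DC-8, first known from carrot embryos, and the D-29 class, named after a cotton seed LEA protein. DC-8, MELO3C009418.2 (chromosome 4, 32298736 to 32300950, minus strand), was at 0 in the 3 unchilled libraries and had levels of 17.5, 41.4 and 35.4 in chilled and 0.127, 0.0316 and 0.138 in recovered libraries. All chilled libraries were above all others. The chilled group held 2163 counts, which made the gene at least 972-fold higher than in unchilled fruit (adjusted p = 6.6e-06). The drop on recovery was -8.23 ± 0.54 on the log2 scale (adjusted p = 7.8e-06). The 10 counts left after recovery made it at least 3.07-fold higher than in unchilled fruit, a difference that did not pass the test (adjusted p = 0.10).

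All 3 genes of the D-29 class were called higher in chilled than in unchilled fruit and all 3 lower in recovered than in chilled fruit. Of all tested genes, 22.1% and 25.3% were called in these directions. The families within the LEA proteins were read from the descriptions after values had been seen. MELO3C006757.2 and MELO3C016388.2, like DC-8 and the genes MELO3C019755.2 and MELO3C009533.2 below, had mean levels under 1 outside chilled fruit. They passed the filter through the chilled group, so their higher level there was partly set by this selection. MELO3C016388.2 (chromosome 7, 24083428 to 24083724) had levels of 0.391, 0.538 and 0.186 in unchilled, 145, 70.1 and 59.7 in chilled and 0, 0.36 and 0 in recovered libraries. It was 7.84 ± 0.59 higher on the log2 scale in chilled fruit (adjusted p = 2.4e-06). The chilled group held 1060 counts and the recovered group 2, a ratio of 775 with a 95% counting interval of 214 to 6406.

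MELO3C016387.2 (24080068 to 24081524) lies beside it and had 0.365, 0.812 and 0.845 in unchilled, 14.9, 11.6 and 6.96 in chilled and 1.06, 3.22 and 0.756 in recovered libraries. It rose by 4.03 ± 0.59 on the log2 scale after chilling (adjusted p = 0.00021) and fell by 2.73 on recovery (SE 0.54, adjusted p = 0.0013), with a change of -3.61 without recovered replicate 2. The remaining D-29 gene, MELO3C006757.2 on chromosome 6, had 0 counts in unchilled libraries, 225 in chilled and 7 in recovered ones. It was at least 101-fold higher in chilled than in unchilled fruit (adjusted p = 1.1e-05). Against unchilled fruit its recovered libraries were at least 2.15-fold higher (adjusted p = 0.031), a call that ended without any 1 of recovered replicates 1 and 2 and the 3 unchilled replicates (adjusted p between 0.0599 and 0.0726). A LEA domain protein on chromosome 11, MELO3C019755.2, had a similar course, with 0, 0.0758 and 0.197 in unchilled, 12.7, 34.7 and 25.3 in chilled and 0.614, 0.305 and 0.233 in recovered libraries. It was 7.96 ± 0.66 higher on the log2 scale after chilling (adjusted p = 5.7e-06), or 9.08 higher without unchilled replicate 3, and changed by -5.98 ± 0.55 on recovery (adjusted p = 9.8e-06).

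**Figure D3:**
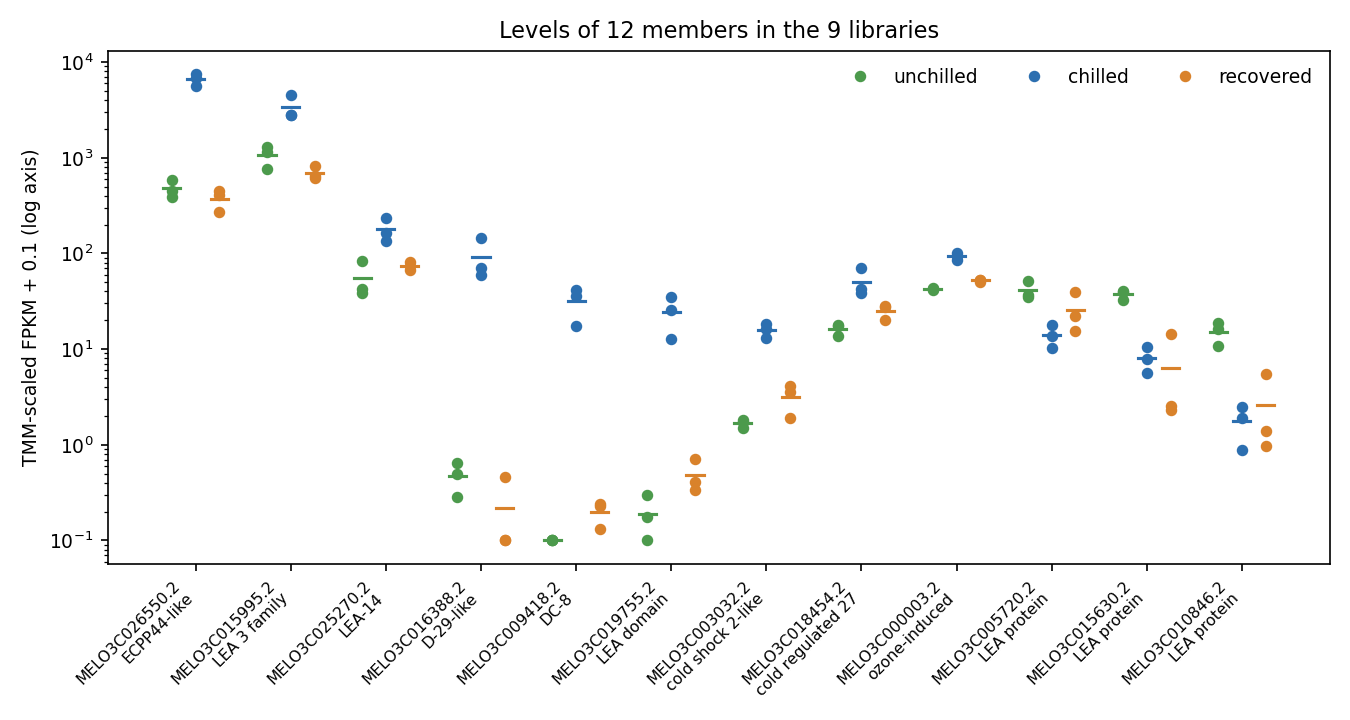
Level of 12 genes in each of the 9 libraries, as TMM-scaled FPKM plus 0.1 on a log axis, with a short line at the mean of each group of 3. The first 9 genes are above their unchilled libraries in chilled fruit, from 2.21-fold for MELO3C000003.2 upward, and the last 3 are below them.

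LEA-14 proteins, atypical and partly structured LEA proteins first described in cotton, moved both ways. Of 18 such genes 8 were tested, with 2 called higher and 4 called lower after chilling (25% and 50%, against 22.1% and 26.2% of all tested genes). MELO3C025270.2 was the higher in level of the risers, with 84.1, 38.5 and 42.1 in unchilled, 237, 136 and 161 in chilled and 81.9, 66.8 and 74.3 in recovered libraries. The chilled libraries were apart from the others, and recovered and unchilled ones overlapped. It rose by 1.70 ± 0.32 on the log2 scale (adjusted p = 0.0012) and fell by 1.26 on recovery (SE 0.32, adjusted p = 0.0056), the latter by 0.75 with library totals, under the fold threshold. MELO3C012699.2 had 10.8, 15.1 and 13.3 in unchilled, 24.2, 30.9 and 30.8 in chilled and 16.6, 13.1 and 16.7 in recovered libraries, a rise of 1.13 ± 0.16 (adjusted p = 0.00016) that was 0.99 without unchilled replicate 1 and 0.63 with library totals.

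The lower LEA-14 genes were MELO3C007566.2, MELO3C024316.2, MELO3C025331.2 and MELO3C016302.2, at mean levels between 2.82 and 7.35 in unchilled and between 0.249 and 2.99 in chilled fruit. MELO3C024316.2 had a log2 change of -2.01 ± 0.28 after chilling (adjusted p = 0.00011) and 3.31 ± 0.27 on recovery (adjusted p = 3.2e-06), and it ended 2.46-fold above unchilled fruit (1.30 ± 0.23, adjusted p = 0.0027). Its libraries stood at 2.06 to 3.26, 0.533 to 0.799 and 6.36 to 7.44, with no overlap. MELO3C025331.2 also rose on recovery, by 1.98 ± 0.26 (adjusted p = 6.8e-05). MELO3C007566.2, by contrast, was still 6.86-fold lower in recovered than in unchilled fruit (-2.78 ± 0.58, adjusted p = 0.0059). With means of 5.55, 0.249 and 0.810 in unchilled, chilled and recovered fruit, it passed the filter through the unchilled group. Its lower level in both other groups was partly set by this selection. Its change after chilling was -4.51 ± 0.72, or -5.51 and -3.87 without chilled replicate 2 and 3. The most abundant LEA-14 gene, MELO3C020416.2, had levels of 97.8 to 131, 114 to 145 and 81.5 to 106 in unchilled, chilled and recovered fruit and passed in no comparison.

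Of the LEA genes without a family in the description, 10 of 36 were tested. Of these, 1 rose and 5 fell after chilling (10% and 50%, against 22.1% and 26.2% of all tested genes). MELO3C015630.2 had 39.5, 40.7 and 32.6 in unchilled, 5.48, 7.84 and 10.5 in chilled and 14.3, 2.43 and 2.20 in recovered libraries. The unchilled libraries were above all others. It fell by 2.23 on the log2 scale after chilling (SE 0.64, adjusted p = 0.012) and was also below unchilled fruit after recovery (-2.59 ± 0.65 on the log2 scale, adjusted p = 0.015, and -4.02 without recovered replicate 1). MELO3C010846.2 had 10.6, 16.1 and 18.5 in unchilled, 0.781, 1.80 and 2.39 in chilled and 5.39, 1.28 and 0.866 in recovered libraries. It changed by -3.17 ± 0.69 after chilling (adjusted p = 0.0026) and by -2.60 ± 0.65 against unchilled fruit after recovery (adjusted p = 0.015), or -3.81 without recovered replicate 1. In both genes recovered replicate 1 stood above the other recovered replicates.

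MELO3C005720.2 on chromosome 9 had 51.1, 36.9 and 35.2 in unchilled, 17.9, 13.7 and 10.3 in chilled and 39.1, 22.1 and 15.4 in recovered libraries, with a fall of 1.56 on the log2 scale after chilling (SE 0.35, adjusted p = 0.0031). Recovered libraries overlapped both other groups. MELO3C025354.2 was low in all groups, at means of 3.39, 0.232 and 4.23 in unchilled, chilled and recovered fruit. Its log2 change was -3.89 ± 0.46 after chilling (adjusted p = 3.9e-05) and 4.21 ± 0.46 on recovery (adjusted p = 2.1e-05), or -4.53 and 4.85 without chilled replicate 2. MELO3C016385.2, next to the D-29 genes of chromosome 7, was opposite to them, with mean levels of 1.39, 0.410 and 1.33. Both of its calls (-1.75 ± 0.58 after chilling and 1.68 ± 0.58 on recovery, adjusted p = 0.020 and 0.024) ended without chilled replicate 1 or 3. The first also ended without unchilled replicate 2 and the second without recovered replicate 1. The D-34 class, seed maturation proteins, had 2 tested genes, and neither passed between chilled and unchilled fruit. Of these, MELO3C006530.2 was higher in recovered than in unchilled fruit (1.09 ± 0.32, adjusted p = 0.025). It stood at 15.5, 5.66 and 8.45 against 4.47 to 4.75, and the call ended when recovered replicate 1 or any unchilled replicate was left out (adjusted p between 0.0604 and 0.0687).

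LEA hydroxyproline-rich glycoproteins, a class of membrane-anchored proteins related to the defence protein NDR1, were split as well. Of the 5 tested, 2 rose and 2 fell after chilling (40% each, against 22.1% and 26.2% of all tested genes). Between chilled and recovered fruit there were again 2 in each direction (40% each, against 25.1% higher and 25.3% lower). MELO3C029922.2 had 1.72, 1.97 and 2.57 in unchilled, 14.6, 6.71 and 6.59 in chilled and 1.48, 1.13 and 0.938 in recovered libraries, with no overlap. It rose by 2.15 ± 0.36 after chilling (adjusted p = 0.00045) and changed by -2.97 ± 0.38 on recovery (adjusted p = 6.7e-05). MELO3C009533.2, at means of 0.404, 5.06 and 0.185, rose by 3.63 ± 0.55 and then changed by -4.66 ± 0.60, or -5.66 without recovered replicate 3. Opposite to these, MELO3C014499.2 had means of 2.16, 0.172 and 1.51 and changed by -3.62 ± 0.52 after chilling (-4.37 without chilled replicate 1) and by 3.10 ± 0.53 on recovery (3.85 without chilled replicate 1). MELO3C013206.2, at means of 2.58, 1.07 and 4.56, changed by -1.27 ± 0.38 and 2.09 ± 0.38, and the first of these calls ended without unchilled replicate 2 (-0.91, adjusted p = 0.054).

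Among the cold-regulated and cold acclimation proteins, 2 of 4 tested genes were called higher after chilling and 0 lower, where 22.1% and 26.2% of all tested genes were. MELO3C018454.2 is described as cold regulated gene 27, whose Arabidopsis namesake responds to cold and light and acts with the circadian clock. It had 13.6, 17.8 and 17.4 in unchilled, 69.8, 38.7 and 42.0 in chilled and 27.6, 20.1 and 27.8 in recovered libraries. The 3 groups did not overlap. It rose by 1.62 ± 0.24 (adjusted p = 0.00022), and its change on recovery, -0.99 ± 0.24, lay just under the fold threshold (adjusted p = 0.0038). MELO3C016754.2, with the same description, had 15.0 to 17.0 in chilled libraries and 22.5 to 31.1 in the others. It was lower in chilled than in unchilled fruit (-0.79 ± 0.15, adjusted p = 0.00081) and rose on recovery (0.78 ± 0.15, adjusted p = 0.00080). Both changes lay under the fold threshold, so it was called in no comparison.

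MELO3C002708.2, described as a cold-regulated 413 inner membrane protein, a chloroplast envelope protein in Arabidopsis, had 7.89, 6.53 and 5.93 in unchilled, 13.2, 13.4 and 14.7 in chilled and 8.48, 9.95 and 11.2 in recovered libraries. The groups did not overlap. Its rise of 1.02 ± 0.14 (adjusted p = 0.00013) was under the fold threshold without chilled replicate 3 (0.97), unchilled replicate 2 (0.996) or unchilled replicate 3 (0.93), and with library totals (0.53). The cold acclimation protein MELO3C021940.2 had 57.4, 80.0 and 68.8 in unchilled, 45.9, 62.5 and 59.5 in chilled and 149, 105 and 111 in recovered libraries. Only the recovered libraries stood apart. It did not pass between chilled and unchilled fruit (-0.30 ± 0.18, adjusted p = 0.15) and rose on recovery by 1.12 ± 0.18 (adjusted p = 0.00029), by 0.95 without recovered replicate 1 and by 0.997 without chilled replicate 1.

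Cold shock proteins carry a cold shock domain that binds RNA and DNA and can melt RNA structure in the cold. The 3 genes differed from each other. MELO3C003032.2, cold shock protein 2-like, had 1.73, 1.39 and 1.65 in unchilled, 12.8, 16.1 and 18.4 in chilled and 4.03, 1.79 and 3.46 in recovered libraries. The groups did not overlap. It rose 9.90-fold after chilling (3.31 ± 0.30, adjusted p = 7.0e-06) and changed by -2.35 ± 0.28 on recovery (adjusted p = 4.3e-05).

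MELO3C013368.2 was called the other way in both comparisons, at means of 6.85, 2.92 and 8.42 in unchilled, chilled and recovered fruit (-1.24 ± 0.25 and 1.53 ± 0.24, adjusted p = 0.0012 and 0.00029). MELO3C013764.2, a cold shock domain-containing protein 3, had 11.8, 14.9 and 12.7 in unchilled, 14.7, 12.8 and 14 in chilled and 6.20, 6.95 and 5.66 in recovered libraries. Only the recovered libraries were apart. It changed by 0.07 ± 0.14 between chilled and unchilled fruit (adjusted p = 0.65), fell by 1.14 on recovery (SE 0.15, adjusted p = 6.4e-05), or by 0.64 with library totals, and was lower than in unchilled fruit (-1.07 ± 0.14, adjusted p = 0.00074). The latter was -0.998 without recovered replicate 3 and -0.97 without unchilled replicate 2, where the call ended.

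Both low-temperature-induced 65 kDa proteins, named after an Arabidopsis gene that ABA, drought and cold induce, were higher in recovered than in chilled fruit. Of all tested genes, 25.1% were called higher there. Between chilled and unchilled fruit 0 of 2 were called, against 48.3% of all tested genes. MELO3C020609.2 had 2.49, 2.87 and 2.79 in unchilled, 1.70, 1.61 and 2.02 in chilled and 5.75, 4.44 and 6.24 in recovered libraries. The groups did not overlap, with the chilled libraries the lowest. It rose by 1.62 ± 0.19 on recovery (adjusted p = 4.2e-05) and was 1.01 ± 0.19 above unchilled fruit (adjusted p = 0.0032), a call that ended without recovered replicate 1 (0.97), recovered replicate 3 (0.90) or unchilled replicate 1 (0.93). MELO3C003321.2 had means of 2.62, 1.42 and 3.39 and rose on recovery by 1.26 ± 0.32 (adjusted p = 0.0050).

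The single tested desiccation-related protein, MELO3C021256.2 of the PCC13-62 type first found in a resurrection plant, had 9.18, 8.20 and 8.41 in unchilled, 7.45, 8.6 and 7.79 in chilled and 8.24, 8.24 and 7.30 in recovered libraries. The ranges overlapped throughout, and its log2 changes were -0.11 ± 0.14, 0.00 ± 0.14 and -0.12 ± 0.14, none past the test. Of the other 6 desiccation-related genes, 5 had no count. The ozone-induced family protein MELO3C000003.2 varied little between replicates, with 42.2, 43.5 and 41.4 in unchilled, 84.9, 94.9 and 101 in chilled and 52.8, 52.5 and 50.8 in recovered libraries. The groups did not overlap. Its rise of 1.14 ± 0.08 (adjusted p = 1.5e-06) was 0.64 with library totals, and its change on recovery was -0.85 ± 0.08, under the fold threshold (adjusted p = 9.4e-06).

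Ordered by mean level, the 2 leading genes were MELO3C015995.2 (1074) and MELO3C026550.2 (477) in unchilled fruit and changed places after chilling, to 6692 for the ECPP44-like gene and 3360 for the LEA 3 family gene. The chilled libraries of these 2 genes did not overlap each other. Next in chilled fruit came MELO3C025270.2 at 178 ± 52.7 and MELO3C020416.2 at 133 ± 16.7 (mean ± SD, n = 3), whose libraries overlapped, and then MELO3C000003.2 at 93.5 ± 7.93 and MELO3C016388.2 at 91.5 ± 46.3, which overlapped as well. After recovery the LEA 3 family gene again led at 698 ± 115, followed by the ECPP44-like gene at 375 ± 94.5 and the cold acclimation protein MELO3C021940.2 at 122 ± 23.7.

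The 96 genes are spread over the 12 chromosomes, and 2 lie on unplaced sequence. Of them, 29 lie in 12 groups of neighbours at most 2 genes apart. Neighbours did not always share a course. On chromosome 7, MELO3C016385.2 was lower in chilled fruit beside the D-29 genes MELO3C016387.2 and MELO3C016388.2, which were higher. On chromosome 9, MELO3C005720.2 fell after chilling, whereas MELO3C005721.2 beside it had mean levels of 2.49, 2.87 and 1.82 and passed in no comparison, and MELO3C005722.2 had 31 counts in all. The plot of neighbouring genes sets them side by side. Another gene of the table overlaps 8 of the 96 genes, among the tested ones MELO3C002708.2, MELO3C006056.2, MELO3C006530.2 and MELO3C020609.2. As no source used here states whether counting used strand, reads of overlapping partners may be included.

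**Figure D4:**
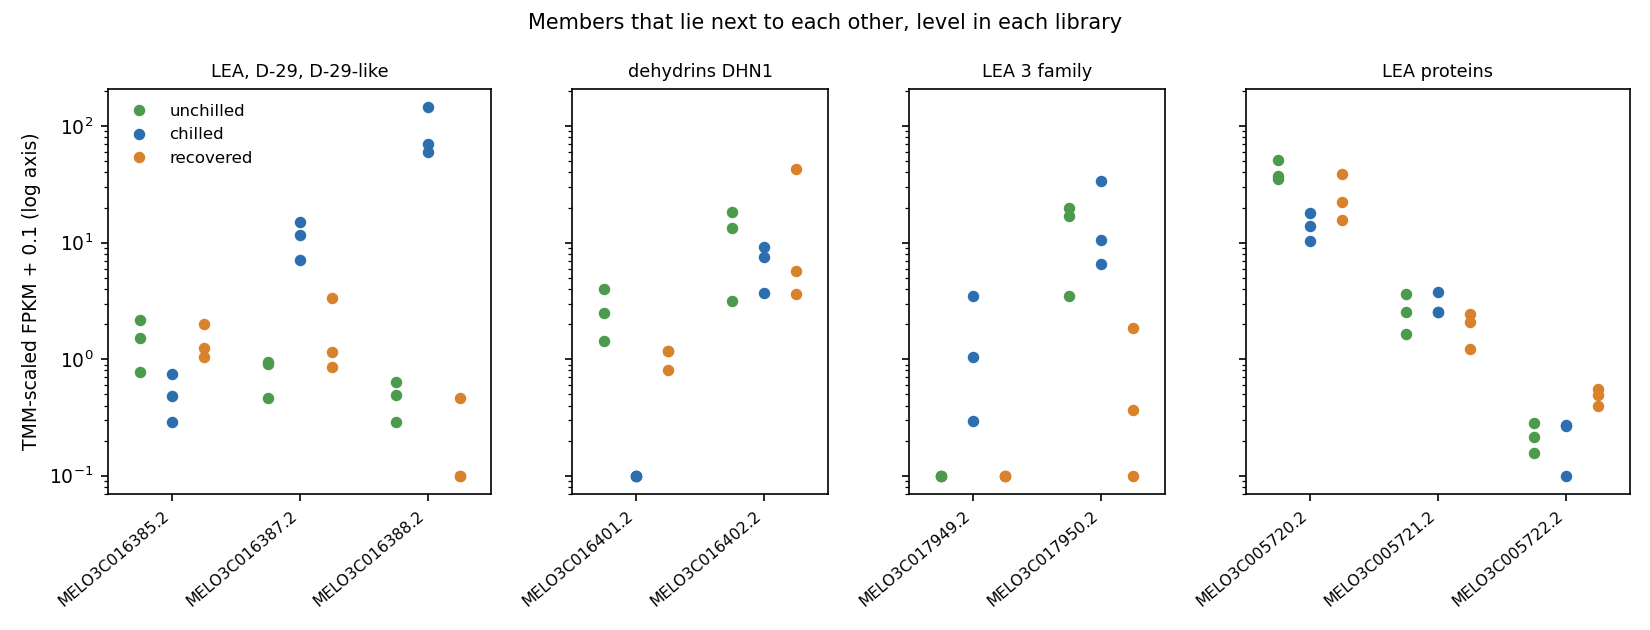
Level of genes that lie next to each other in the genome, in each of the 9 libraries, as TMM-scaled FPKM plus 0.1 on a log axis, in 4 groups of neighbours. In the first panel the D-29 genes MELO3C016387.2 and MELO3C016388.2 are highest in the chilled libraries and MELO3C016385.2 is lowest there, and the dehydrin MELO3C016401.2 lies at 0 in all 3 chilled libraries.

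The untested genes gave few counts. Of 27 with any count, the chilled libraries were all above the unchilled ones for 8 (29.6%) and all below them for 2 (7.41%), and of all 6205 untested genes with counts for 15.3% and 15.0%. MELO3C011935.2, a hydroxyproline-rich LEA glycoprotein, had 21 counts in chilled fruit and 0 in both other groups. MELO3C022195.2, a LEA family protein, had 57 counts in unchilled, 0 in chilled and 6 in recovered libraries, and was thus at least 14.1-fold lower in chilled than in unchilled libraries, for counting error only. The highest total, 289 counts, was that of MELO3C024247.2.

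The deposited Gene Ontology terms were used to see what the genes share beyond their names. Of the 96 genes, 94 had at least 1 term, but a response to water deprivation was annotated for 12, a response to cold for 4 and a response to ABA for 4. Among those 12, only MELO3C003321.2, MELO3C015995.2, MELO3C017950.2 and MELO3C020609.2 were tested. The 4 genes annotated with cold were the cold regulated gene 27 pair, MELO3C016754.2 and MELO3C018454.2, and the low-temperature-induced pair, MELO3C003321.2 and MELO3C020609.2. Of these, MELO3C018454.2 alone was called between chilled and unchilled fruit. The others were lower in chilled fruit but under the fold threshold, by -0.79 (MELO3C016754.2), -0.90 (MELO3C003321.2) and -0.61 (MELO3C020609.2) on the log2 scale. Their adjusted p-values were 0.00081, 0.029 and 0.018. The ECPP44-like gene, DC-8 and the D-29 genes carried none of these 3 terms.

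Transcripts of the factors that act upstream in the pathway were examined by a list of CBF/DREB, ICE, ABI3, ABI5 and ABF descriptions. Of 20 such genes 13 were tested. Between chilled and unchilled fruit 4 were higher and 5 lower (30.8% and 38.5%, against 22.1% and 26.2% of all tested genes). Between recovered and chilled fruit 2 were higher and 4 lower (15.4% and 30.8%, against 25.1% and 25.3%). Between recovered and unchilled fruit 1 was higher and 1 lower (7.69% each, against 3.66% and 9.15%). The largest changes past the test were those of MELO3C005367.2, described as dehydration-responsive element-binding protein 1D-like (means of 10.2, 1.29 and 1.33 in unchilled, chilled and recovered fruit, log2 change -3.01 ± 0.87 after chilling, adjusted p = 0.011), and of CmCBF1, MELO3C006869.2 (21.3, 2.72 and 5.27, -2.98, adjusted p = 0.023). The DREB list members went both ways. MELO3C019763.2 fell as well (-1.34, adjusted p = 0.0015), and the DREB 2C gene MELO3C008318.2 rose by 2.66 on the log2 scale (adjusted p = 1.8e-07). MELO3C026025.2, like these chosen after its values were seen, had means of 26.5, 119 and 30.4 and rose by 2.16 on the log2 scale after chilling (adjusted p = 1.6e-07). Both ICE genes were called higher in chilled fruit, MELO3C002385.2 by 1.19 (adjusted p = 0.0017) and MELO3C014812.2 by 2.02 (0.0036). Of the ABI5-like genes, MELO3C015611.2 (-1.08, adjusted p = 2.2e-05) and MELO3C021421.2 (-1.86, 0.027) were called lower. The other tested ABI5-like genes were not called in this comparison.

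A further list held proteins of dehydration and temperature responses outside the 96 genes, such as ERD, DEHYDRATION-INDUCED 19, RD22, abscisic stress ripening proteins and temperature-induced lipocalins. Its words also took in hypersensitive-induced response proteins. Of its 18 tested genes, 3 rose and 4 fell after chilling (16.7% and 22.2%, against 22.1% and 26.2% of all tested genes). After recovery 5 were above and 4 below chilled fruit (27.8% and 22.2%, against 25.1% and 25.3%). Against unchilled fruit 2 were above and 1 below (11.1% and 5.56%, against 3.66% and 9.15%). The temperature-induced lipocalin MELO3C004486.2, a membrane-protecting lipid-binding protein, had means of 9.46, 59.0 and 16.9 and rose by 2.64 after chilling (adjusted p = 7.0e-08). The hypersensitive-induced response protein MELO3C005414.2 had 2.96, 47.0 and 5.30 and rose by 3.99 (adjusted p = 1.5e-07).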

How the data were processed

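Reads of 9 RNA libraries (read pairs of 150 bp) were trimmed, aligned to the melon genome DHL92 v3.5.1 and counted per gene by the authors with Cutadapt, HISAT2 and HTSeq. The submitters' processing notes give cutadapt 1.15 and HISAT2 2.0.5, which are not the versions of the study's methods. The authors deposited 1 table with read counts and FPKM of 29980 genes per library. The deposited counts were taken as raw, and the deposited FPKM equal those recomputed from count, gene length and library total.

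Counts were fitted in R 4.3.3 with edgeR 4.0.16 (robust quasi-likelihood fit, TMM factors of 1.12 to 1.13 in recovered, 0.764 to 0.808 in chilled and 1.11 to 1.13 in unchilled libraries, all 9 libraries, no block). The filter was a mean FPKM above 1 over the libraries, which 15022 genes passed. Calls needed an absolute log2 fold change above 1 and an adjusted p below 0.05 over all kept genes. The SE of a log2 fold change is its size over the square root of F. Folds against 0 counts take 3 counts over the group as floor, and intervals cover counting error only. The p-values measure the spread between 3 replicates of 3 fruits each.

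The genes and lists were chosen with earlier results of these data known. Values per library are given for the ECPP44-like and DC-8 genes, for called genes with a mean level of at least 10 in their highest group, and for the highest gene of each class. Of other lists, up to 2 called genes with the largest change and a mean level of at least 10 in their highest group are named. Some further genes, such as other dehydrins and neighbours, were named after their values were seen. The lists were members and their classes, upstream factors, other dehydration and temperature proteins, seed markers, cutin and wax enzymes and genes listed as chloroplast-encoded. Alternatives were DESeq2 1.42.0, its size factors, library totals, no filter, edgeR's own filter, a replicate block, limma 3.58.1 on log2 FPKM (pseudocounts 1 and 0.1), a fit of 2 groups, an adjusted p below 0.01, no fold threshold, and each library left out. Promoter, transcript and protein sequences were not used here.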

Additional observations from a re-analysis of the deposited data

How the results depend on the processing

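Of the 61 calls on single genes of the 46, 47 passed in every alternative fit and with each library left out, and 0 turned their direction. The stricter threshold is not among these fits, and 44 of the 47 had an adjusted p below 0.01. With each library left out in turn, genes higher in chilled than in unchilled fruit numbered 14 to 15 and genes lower 11 to 14, genes higher in recovered than in chilled fruit 9 to 12 and lower 13 to 15. The counts between recovered and unchilled fruit were the least stable, with 1 to 5 higher and 3 to 6 lower. In place of the 4 genes higher there, DESeq2 gave 7, limma 1 with either pseudocount, a fit of 2 groups 1, an adjusted p below 0.01 2 and no fold threshold 9, where 4.36% of all tested genes were higher with DESeq2, 2.88% and 3.67% with limma, 3.40% with 2 groups, 2.72% with the stricter p and 17.4% without the fold threshold, against 3.66% in the reported fit. An adjusted p below 0.01 gave 2 genes lower in place of 5, and 6.33% in place of 9.15% of all genes. Without the filter on FPKM, 73 genes were tested and 21 in place of 13 were lower in recovered than in chilled fruit, and 19.9% of the 21227 genes then tested. The replicate block gave 2 genes higher in recovered than in unchilled fruit in place of 4, and 3.45% of all genes. Same-numbered libraries deviated with correlations of -0.14 to 0.15, with 2 of 9 over 0.1, and libraries with different numbers with -0.16 to 0.12. Deviations from a mean of 3 libraries depend on each other, so this cannot decide whether the numbers pair the samples. Library totals and limma took the rises of MELO3C000003.2, MELO3C002708.2 and MELO3C012699.2 after chilling under the fold threshold, and so did no filter (0.999, 0.88 and 0.99).

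Some changes that did not pass turned sign under some settings. MELO3C013764.2 between chilled and unchilled fruit (0.07) was -0.43 with library totals, -0.068 without the filter, -0.39 and -0.42 with limma, and -0.015 to 0.18 with a library left out, negative without unchilled replicate 1. MELO3C017950.2 (0.33) was -0.19 with library totals, -0.17 and -0.16 with limma, and -0.66 to 0.73 with a library left out, negative without chilled replicate 1 or unchilled replicate 2. On recovery, MELO3C002708.2 (-0.48) was 0.024 with library totals and 0.016 and 0.017 with limma. MELO3C010846.2 (0.57) was -0.65 to 0.99 with a library left out, negative without recovered replicate 1. MELO3C015630.2 (-0.35) was 0.14 with library totals and -1.78 to 0.063 with a library left out, called lower without recovered replicate 1 and positive without either of the others. MELO3C021256.2 (0.00) was 0.50 with library totals, 0.13 without the filter, 0.44 and 0.50 with limma, 0.081 with 2 groups and -0.047 to 0.056 with a library left out. The cause was not tested, beyond the shift of all genes that library totals bring.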
